A study of Mus musculus with 6 samples.

Results

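Claudins, the proteins that sit with them at tight junctions, and the proteins that set the apical side of a cell were followed in paraxial mesoderm of mouse embryos with and without Paraxis. The 39 members were given as a list of gene symbols and found through the gene name of each probe: 18 claudins, 7 other junction proteins and 14 polarity proteins, among 28034 genes named on the array. All 39 had at least 1 probe, and 35 were bright enough to be tested among 19325 genes.

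The groups were wild-type (WT) and Paraxis-/- embryos at embryonic day 9.5, both given as strain C57BL/6J. Tcf15 encodes Paraxis, a transcription factor of the basic helix-loop-helix class, and mouse genetics has shown that new somites need it to become epithelial. The tissue was the anterior presomitic mesoderm with the 4 newest somites, frozen until the embryo was genotyped, and 5 embryos were combined into each pool. Pools numbered 3 per genotype, and a WT pool was hybridised together with a Paraxis-/- pool on 2 two-colour arrays with the dyes exchanged, which gave 6 arrays and 3 independent pairs that carry the letter of their WT pool (A, B or C). The part of Tcf15 that was removed is not named in the labels, so the place of its probe relative to the deletion is not known. Because the RNA came from whole tissue, fewer cells of a type and less RNA per cell cannot be told apart.

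Tight junctions seal the space between neighbouring epithelial cells near their apical side. Claudins are the multi-pass membrane proteins that form the sealing strands, occludin and the junctional adhesion molecules (JAMs) lie beside them, and plaque proteins such as the zonula occludens proteins tie them to actin. The place of the junction is set by opposed polarity complexes: the Par complex (PAR-3, PAR-6 and atypical protein kinase C) and the Crumbs complex on the apical side, and the Scribble complex on the basolateral side. In a newly formed somite, mesenchymal cells of the presomitic mesoderm turn into an epithelial ball whose apical side faces the central cavity.

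All values below are log2 ratios of Paraxis-/- over WT unless they are called levels, which are log2 normalised probe intensities of a pool. Levels of different probes cannot be set against each other. Tcf15 itself was lower in all 3 pairs, with ratios of -5.23, -5.48 and -5.52, a mean of -5.41 (SE 0.09) and an adjusted p of 0.00053 (limma, Benjamini-Hochberg adjustment). Each array holds 43379 gene spots, of which 27080 to 30982 were well above background for WT RNA and 28683 to 31795 for Paraxis-/- RNA. Slide 1 carried pair A and slide 2 the other 2 pairs. All 15 tested genes of the list of somite and presomitic mesoderm markers were well above background in each measurement. Of these 15, Tcf15 among them, 7 were lower at an unadjusted p under 0.05 (limma), against 2.73% of all genes. In the other direction 1 was higher, against 2.34%. The adjusted p was under 0.05 for 2 of the 15, Tcf15 and Pax1. The summed level of the 15 lay between 16.59 and 16.70 in the WT pools and between 15.67 and 16.14 in the Paraxis-/- pools. That sum includes the targeted Tcf15, and a sum without it was not computed. In all, 0.0207% of genes (4 of 19325) passed the threshold of 0.05 on the adjusted p, and 5.07% had an unadjusted p under 0.05.

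None of the 35 tested members passed the adjusted threshold, and 1, Cldn11, had an unadjusted p under 0.05. Cldn11 was higher in the Paraxis-/- pool of each pair and is the only member that differed by at least 1.5-fold in the mean, against 0.771% of all genes. That difference was upward, as in 0.388% of all genes, and no member was lower by as much, against 0.383%. The median of the 35 was 0.04, beside 0.00 for all genes, and the median size regardless of sign was 0.10, beside 0.07 for all genes. In 10 members the ratio was above 0 in all 3 pairs, against 13.5% of all genes, and in 2 it was below 0 in all 3 pairs, against 12.2%. Either direction together was seen in 25.7% of all genes. Most members therefore differed by less than the spread between pairs.

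**Figure D1:**
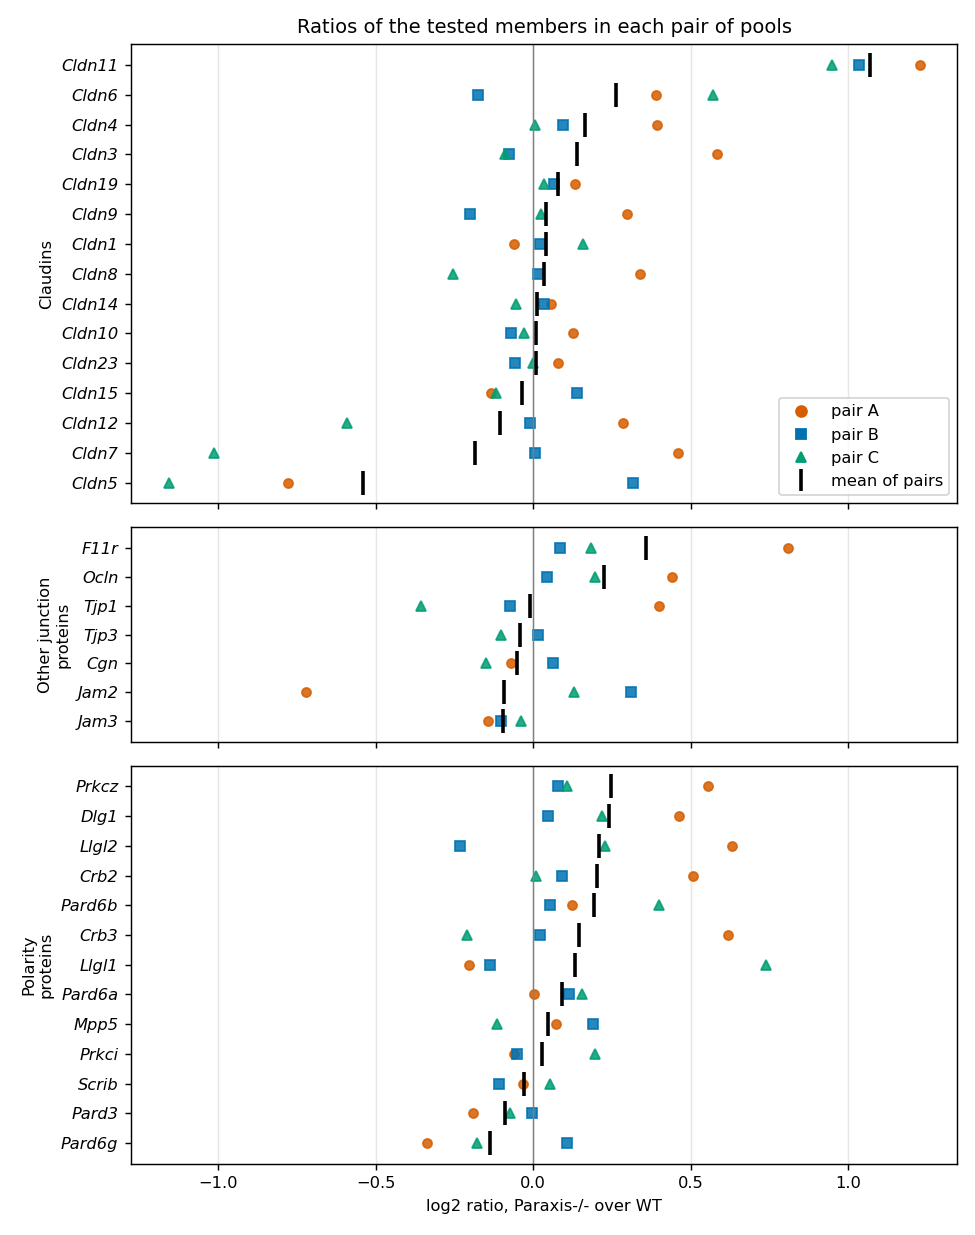
Log2 ratio of Paraxis-/- over WT (horizontal axis) of the 35 tested members in pair A (circles), pair B (squares) and pair C (triangles), with the mean of the pairs as a black bar. Cldn11 has all 3 pairs near 1, while Cldn5 and Cldn7 have pairs on both sides of 0; Tjp3 has no value in pair A.

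Cldn11, known as a sealing claudin of myelin sheaths and of the Sertoli cells of the testis, had the clearest difference of all members. Its WT pools A, B and C had levels of 8.72, 9.64 and 9.57. The Paraxis-/- pools on the same arrays had levels of 9.94, 10.67 and 10.52. Every Paraxis-/- pool lay above every WT pool, and the pools of pair A, alone on slide 1, were the lowest of each genotype. Pools of the genotypes did not overlap in 5.96% of all genes, and among the members this also held for Ocln and Cldn19. The ratios of the 3 pairs were 1.23, 1.03 and 0.95.

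The mean ratio of Cldn11 was 1.07 (SE 0.08, n = 3 pairs, 95% interval 0.85 to 1.29), a level 2.10-fold higher in Paraxis-/- tissue. Both dye orientations of each pair, 6 arrays in all, had the same sign. By unadjusted p (5.84e-05) it ranked 9 among all genes tested, and its adjusted p of 0.125 (limma) did not pass the threshold. Over the alternative settings that adjusted p ranged from 0.00156 to 0.992, and in 4 of them it passed. With slide as a block it was 0.0211, and with the 6 arrays fitted with pair as a replicate block it was 0.00377. An exact two-sided sign-flip test over 3 pairs cannot go below 0.25, which is the value it gave. Without pair A the ratio was 0.99.

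Cldn11 was read by 1 probe, at chr3:31062922-31062981 in the mm9 build, well above background in every measurement. Whether that stretch is coding or untranslated is not annotated here. Prkci, which encodes the iota form of atypical protein kinase C and is also a member, lies on the same chromosome with its probe 112.0 kb away. Its ratios were -0.06, -0.05 and 0.20, with a mean of 0.03 (SE 0.08). Of the 4 protein-coding genes on either side of Cldn11 in RefSeq's order, the adjacent Skil, a regulator of SMAD signalling, had a mean of 0.25 (unadjusted p = 0.0221, adjusted p = 0.934 by limma) and Slc7a14 on the other side a mean of 0.03. All 8 neighbours lay between -0.02 and 0.25, so the size of the Cldn11 ratio was not shared by any of them.

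The stretch just upstream of Cldn11 is shown because Paraxis belongs to the basic helix-loop-helix proteins, which bind the E-box, CANNTG. The 250 bases before its start site in RefSeq (GRCm38.p6, plus strand, chr3:31149670-31149919) are printed in lower case, and capitals would mark an E-box, of which a search of both strands (the pattern is its own reverse complement) found 0.
Cldn11: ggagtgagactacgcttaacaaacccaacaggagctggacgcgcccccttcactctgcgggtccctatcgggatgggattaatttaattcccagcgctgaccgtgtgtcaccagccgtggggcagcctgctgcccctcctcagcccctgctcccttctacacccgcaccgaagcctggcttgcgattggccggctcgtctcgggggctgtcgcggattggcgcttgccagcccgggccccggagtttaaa
An E-box was present in the same window of 66.2% of all promoters in the listing. It was present in 31 of the 48 promoters (64.6%) listed for 30 of the members. The absence says only that these letters are not in this window.

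The other claudins were spread around 0. Of the 15 tested claudins, 11 had a mean ratio above 0 and 4 below, beside 51.6% of all genes above 0. Without pair A, 6 were above 0 and 9 below. The 11 include Cldn23, which passed the brightness filter only through the Paraxis-/- pools. The median of the 15 was 0.03, and without Cldn11 the median of the other 14 was 0.02. The medians of all 15 in the 3 pairs were 0.29, 0.02 and -0.03, beside -0.00, 0.01 and -0.00 for all genes, and those of the 14 without Cldn11 were 0.21, 0.01 and -0.04. In pair A, 8 of 15 claudins were at least 1.2-fold higher, against 10.4% of all genes. In pair B 2 of 15 were, against 5.26%. In pair C 2 of 15 were higher by that much, against 9.25%, and 3 of 15 lower, against 9.24%.

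**Figure D2:**
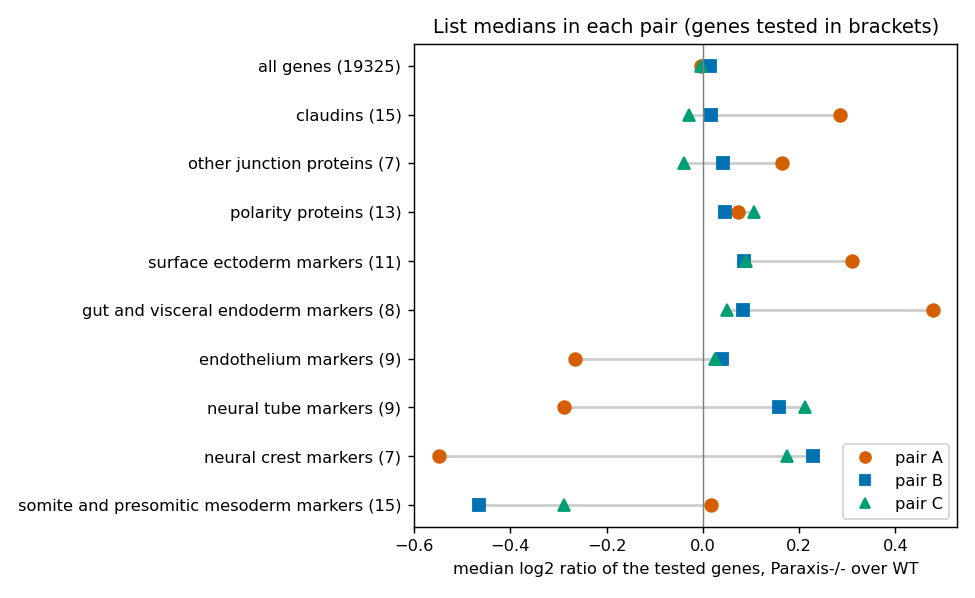
Median log2 ratio of Paraxis-/- over WT (horizontal axis) of all genes, of the claudins, other junction proteins and polarity proteins, and of marker lists of tissues, in pair A (circles), pair B (squares) and pair C (triangles). The claudins and the surface ectoderm and endoderm markers have their highest median in pair A, while the polarity proteins lie between 0.05 and 0.11 in all 3 pairs.

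Claudins of polarised epithelia, Cldn3, Cldn4, Cldn6 and Cldn7, shared a high value in pair A. Cldn3 had ratios of 0.58, -0.08 and -0.09 in pairs A, B and C. Cldn4 had ratios of 0.39, 0.10 and 0.01, with a mean of 0.16 (SE 0.10, adjusted p = 0.950 by limma). That mean was 0.05 without pair A, 0.28 with background subtracted, 0.34 with Agilent's processed signals and 0.33 in the series matrix. Both lie near each other on chromosome 5, with probes 41.8 kb apart, and both were near 0 in pair C. Their levels overlapped between genotypes.

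Cldn6, an early embryonic epithelial claudin, had WT levels of 8.95, 8.68 and 8.78 and Paraxis-/- levels of 9.34, 8.5 and 9.35. Its mean ratio was 0.26 (SE 0.16, adjusted p = 0.950 by limma), or 0.48 without pair B and 0.11 without pair C. The Paraxis-/- pool of pair B was the lowest of all 6 pools, so the groups overlapped. The neighbouring Cldn9, with a probe 1.1 kb away on chromosome 17, had ratios of 0.30, -0.20 and 0.02, again with the lowest value in pair B.

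Cldn7, found along the lateral membranes of many epithelia, had WT levels of 9.66, 9.80 and 9.80. The Paraxis-/- levels were 10.12, 9.81 and 8.78, which lay above, beside and below those of WT. The ratios were 0.46, 0.01 and -1.01, with a mean of -0.18 (SE 0.29). Both dye orientations gave nearly the same value in each pair, at 0.47 and 0.45 in pair A and -1.01 and -1.02 in pair C. The opposed signs of pairs A and C were thus seen on both arrays of each of these pairs. In pair B the arrays gave 0.04 and -0.03. Without pair C the mean was 0.23.

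Cldn5, the main claudin of endothelial cells, had the lowest mean of all members. Its WT levels were 12.44, 11.77 and 11.52, and the Paraxis-/- levels were 11.66, 12.08 and 10.36. The ratios were -0.78, 0.32 and -1.16, so that 2 pairs were lower and 1 was higher. The mean of -0.54 (SE 0.29, 95% interval -1.29 to 0.21) did not pass the test (adjusted p = 0.950, limma). Without pair C it was -0.23, and without pair B it was -0.97.

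The list of endothelial markers, of which 9 of 10 were tested and Erg was too dim, had medians of -0.27, 0.04 and 0.03 in pairs A, B and C. Its summed level lay between 13.37 and 13.70 in the WT pools and between 13.36 and 13.60 in the Paraxis-/- pools. The list was thus lower in pair A, as Cldn5 was, and near 0 in pair C, where Cldn5 was lowest. The part of endothelial RNA in the Cldn5 values was not tested.

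**Figure D3:**
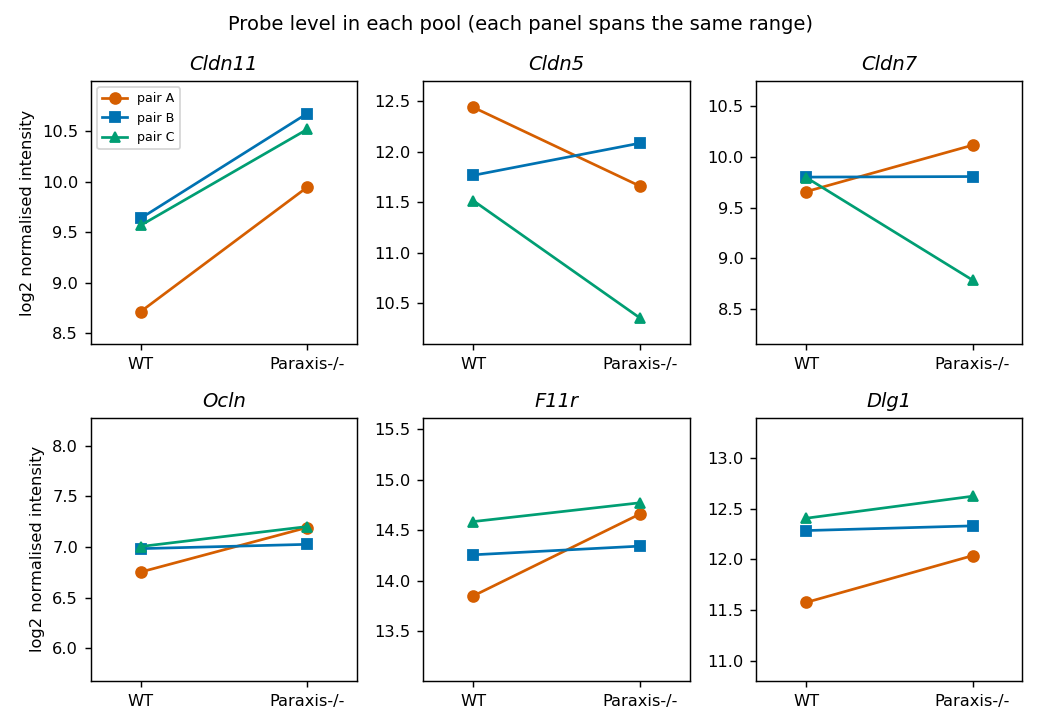
Level of 6 members (log2 normalised intensity, vertical axis, the same span in each panel) in WT and Paraxis-/- pools, with a line joining the pools of a pair. The 3 lines of Cldn11 slope up alike, Cldn5 and Cldn7 have crossing lines, and the steepest line of Ocln, F11r and Dlg1 is that of pair A.

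Of the remaining claudins, Cldn12 had ratios of 0.29, -0.01 and -0.59 with a mean of -0.10, in the same order over the pairs as Cldn7. Cldn8 had ratios of 0.34, 0.02 and -0.25. Cldn1, a main claudin of epidermis, had a mean of 0.04, Cldn10 of 0.01, Cldn14 of 0.01 and Cldn15, known from the gut, of -0.04. Each of these 4 stayed within 0.16 of 0 in all pairs. Cldn10 was named Cldn10a in the array files and was matched by its accession.

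Cldn19, known from kidney and peripheral myelin, had WT levels of 6.65, 6.74 and 6.74 and Paraxis-/- levels of 6.79, 6.81 and 6.77. Its pools did not overlap, but only 4 of the 6 arrays had the same sign. The ratios were 0.13, 0.07 and 0.03, and a further kept probe had -0.02, 0.09 and 0.02. The mean of the probe used was 0.08, with an SE of 0.07 (adjusted p = 0.954 by limma). Cldn23 passed the brightness filter only through the Paraxis-/- pools (5 of 6 measurements, against 3 of 6 in WT) and had a mean of 0.01. Cldn2, Cldn16 and Cldn18 were well above background in at most 2 of the 6 measurements of either genotype and were not tested. For these 3 only an upper bound on the signal was measured.

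The 7 junction proteins other than claudins had a median of -0.04, with 2 above 0 and 5 below, beside 51.6% of all genes above 0. The sign of the median is not stable, since over the alternatives that kept all pairs it ranged from -0.06 to 0.02. Ocln and F11r stood above the others. In pair A, 3 of the 6 measured were at least 1.2-fold higher, against 10.4% of all genes, and 1 was lower by as much, against 12.1%. In pair B only Jam2 of the 7 was higher by that much, against 5.26%, and 0 were lower, against 3.41%. In pair C 0 of the 7 were higher, against 9.25%, and 1 was lower, against 9.24%.

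Ocln, which encodes occludin, had WT levels of 6.75, 6.98 and 7.01 and Paraxis-/- levels of 7.19, 7.03 and 7.20. All Paraxis-/- pools lay above all WT pools, but by a narrow margin (7.03 against 7.01). In pair B the dye orientations disagreed in sign, at 0.15 and -0.07. The ratios were 0.44, 0.04 and 0.20, with a mean of 0.23 (SE 0.10) and an adjusted p of 0.950 (limma). The mean was 0.12 without pair A, 0.49 with background subtracted, 0.55 with Agilent's processed signals and 0.54 in the series matrix. A further probe of Ocln was not well above background in any measurement.

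F11r, which encodes the junctional adhesion molecule JAM-A, had WT levels of 13.85, 14.26 and 14.59 and Paraxis-/- levels of 14.66, 14.34 and 14.77. The Paraxis-/- pool of each pair was the higher one, but the groups overlapped because WT pool C was above the Paraxis-/- pool of pair B. The ratios were 0.81, 0.09 and 0.19, with the same sign on all 6 arrays. The mean of 0.36 (SE 0.16, adjusted p = 0.950 by limma) was 0.14 without pair A.

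The other JAMs did not follow F11r. Jam2, the JAM of endothelium and other tissues, had ratios of -0.72, 0.31 and 0.13 with a mean of -0.09 (SE 0.21). Jam3 had ratios of -0.14, -0.10 and -0.04 with a mean of -0.09 (SE 0.07), and its further kept probe had a mean of -0.07. Jam3 was 1 of the 2 members with a ratio below 0 in all 3 pairs.

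Among the plaque proteins, Tjp1 (ZO-1) had ratios of 0.40, -0.07 and -0.36, which cancel in a mean of -0.01 (SE 0.15). Cgn, which encodes cingulin, had ratios of -0.07, 0.06 and -0.15 with a mean of -0.05. Tjp3 (ZO-3) rests on 2 pairs, with ratios of 0.02 and -0.10, because its spot was an outlier on 1 array of pair A. The other array of pair A gave 0.93 for Tjp3, and keeping that array turned its mean to 0.28.

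The 13 tested polarity proteins had a median of 0.13, with 10 above 0 and 3 below, beside 51.6% of all genes above 0. Their medians in pairs A, B and C were 0.07, 0.05 and 0.11, which is a narrower range than that of the claudins. The median of the polarity list ranged from 0.07 to 0.16 over the alternatives that kept all pairs, and it was 0.05 without pair A, 0.205 without pair B and 0.09 without pair C. With all pairs it was 0.06 for the Par complex, 0.14 for the Crumbs complex and 0.17 for the Scribble complex. Those medians rest on 6, 3 and 4 tested genes, and each complex had a pair with a median below 0. In pairs A, B and C they were -0.03, 0.07 and 0.13 for Par and 0.51, 0.09 and -0.12 for Crumbs. For Scribble they were 0.22, -0.12 and 0.22. No polarity member passed the adjusted threshold or had an unadjusted p under 0.05, and the largest mean was 0.25.

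In the Par complex, Prkcz, the zeta form of atypical protein kinase C, had WT levels of 10.14, 10.63 and 10.71 and a mean Paraxis-/- level of 10.74 ± 0.06 (SD, n = 3 pools). Its ratios were 0.56, 0.08 and 0.11, with a mean of 0.25 (SE 0.12, adjusted p = 0.950 by limma). The groups overlapped, WT pool A was the low one, and the mean was 0.09 without pair A. Its 3 probes gave means of 0.15, 0.21 and 0.25, each with its highest ratio in pair A.

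Pard6b, a PAR-6 adaptor that brings the kinase to the complex, had WT levels of 9.74, 9.58 and 9.43 and Paraxis-/- levels of 9.86, 9.63 and 9.83. Its mean ratio was 0.19 (SE 0.09, adjusted p = 0.950 by limma), with the highest ratio, 0.40, in pair C. A dimmer probe of Pard6b had a mean of -0.07, so the probes disagreed in sign. The mean was 0.04 when a gene's probes were averaged and 0.09 without pair C. Pard6a had ratios of 0.00, 0.11 and 0.16. Pard6g had a mean of -0.14, and its further probe a mean of -0.20.

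Pard3, which encodes the PAR-3 scaffold found at the apical side of epithelial somites, had 6 probes that did not move alike. The brightest, used for the gene, had ratios of -0.19, -0.00 and -0.07. Along chromosome 8 (mm9) the other 5 probes began at 129885269, 129925162, 129925727, 129956730 and 129984219. Their means in that order were -0.02, 0.00, 0.10, 0.16 and -0.35. The brightest probe lay furthest along, at 130135585 to 130135644.

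The probe at chr8:129984219-129984278 (plus strand) was the lowest of the 6, with ratios of -0.49, -0.32 and -0.25. Its mean of -0.35 (SE 0.08) had an unadjusted p of 0.00622 and an adjusted p of 0.665 (limma, over all kept probes). The probe at 129956730 was the highest, with ratios of 0.20, 0.07 and 0.21. These 2 probes thus had opposite signs in all 3 pairs, though neither passed the threshold, and their difference was not tested. The probe was picked out after its values were seen. Its sequence, as in the array files, shows what was hybridised.
Pard3 A_51_P262858: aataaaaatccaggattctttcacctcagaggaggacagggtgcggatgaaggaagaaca
Of the 3 reading frames of these 60 bases, 2 held no stop codon. The files do not say which transcripts of Pard3 contain it, beyond the single RefSeq transcript it was designed on.

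**Figure D4:**
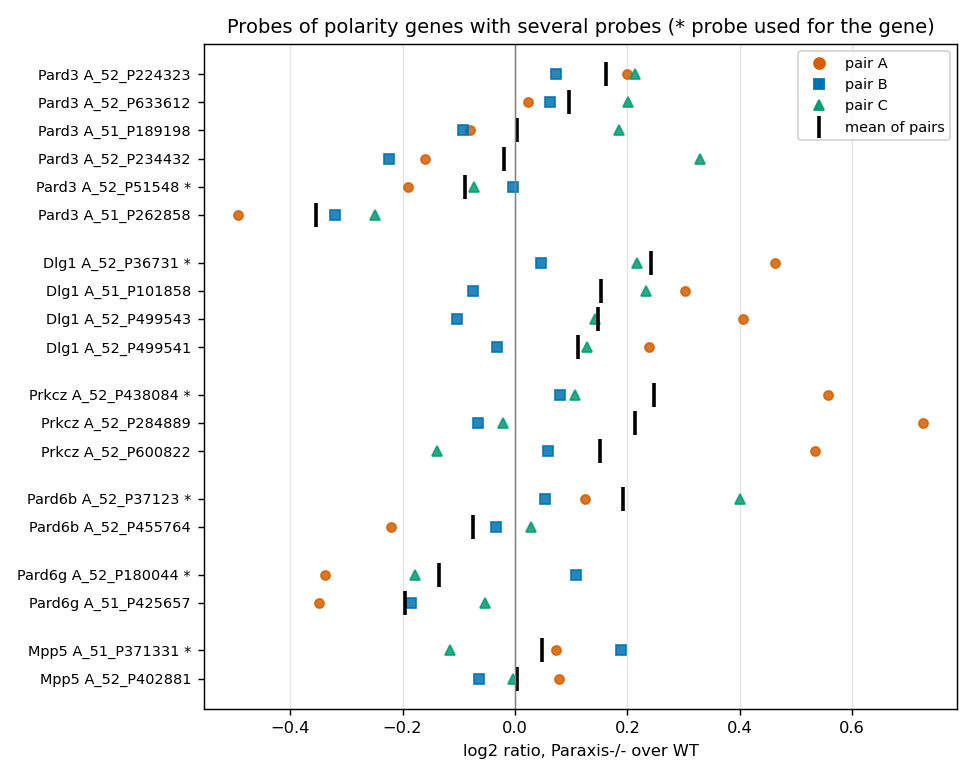
Log2 ratio of Paraxis-/- over WT (horizontal axis) of each probe, kept for brightness and measured in at least 2 pairs, of 6 polarity genes in pair A (circles), pair B (squares) and pair C (triangles), with the mean of the pairs as a black bar. The 6 probes of Pard3 spread from -0.35 to 0.16, while the 4 probes of Dlg1 and the 3 of Prkcz keep 1 sign in the mean and have pair A as the highest pair.

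In the Crumbs complex, Crb2, an apical membrane protein, had WT levels of 11.81, 12.47 and 12.62 and Paraxis-/- levels of 12.31, 12.56 and 12.63. The ratios were 0.51, 0.09 and 0.01, with a mean of 0.20 (SE 0.12, adjusted p = 0.950 by limma), which was 0.05 without pair A. Crb3, the epithelial Crumbs protein, had ratios of 0.62, 0.02 and -0.21. In both genes the pools of pair A had the lowest level of their genotype. For Crb3 the WT levels were 7.33, 8.35 and 8.51 and the Paraxis-/- levels 7.95, 8.37 and 8.30. Pair A was alone on slide 1, so pool and slide cannot be told apart in these levels. Mpp5 (PALS1), the adaptor of the complex, had a mean of 0.05, and its dye orientations disagreed in pair A, at -0.54 and 0.68. None of the 3 probes of Crb1 was well above background in any measurement, and it was not tested.

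In the Scribble complex, Dlg1, a basolateral scaffold, had the smallest p of the members after Cldn11. The WT levels of Dlg1 were 11.57, 12.28 and 12.41, and the Paraxis-/- levels were 12.04, 12.33 and 12.62. The ratios were 0.46, 0.05 and 0.22, with a mean of 0.24 (SE 0.10, unadjusted p = 0.0619, adjusted p = 0.950 by limma). The groups overlapped, and the mean was 0.13 without pair A. All 4 probes of Dlg1 had a mean above 0, from 0.11 to 0.24, and for each the highest ratio was that of pair A.

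The Llgl genes, whose products act with Scribble at the basolateral side, had pairs that disagreed. Llgl1 had ratios of -0.20, -0.14 and 0.74, and its mean of 0.13 became -0.17 without pair C. Llgl2 had ratios of 0.63, -0.23 and 0.23, with a mean of 0.21 (SE 0.17). Scrib itself had a mean of -0.03 (SE 0.07), with ratios of -0.03, -0.11 and 0.05.

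**Figure D5:**
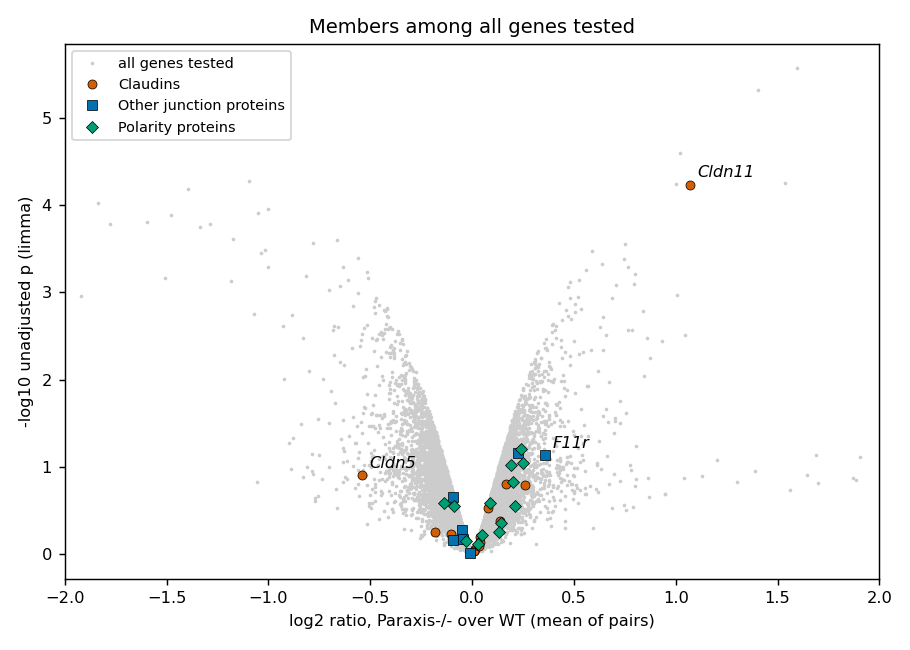
Unadjusted p (vertical axis, as -log10) against the mean log2 ratio of Paraxis-/- over WT (horizontal axis) of all genes tested (grey) and of the claudins (circles), other junction proteins (squares) and polarity proteins (diamonds). Cldn11 stands among the genes with the smallest p and the other 34 members lie below it; 2 genes lie beyond the limits of the horizontal axis.

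Pair A held most of the large ratios. Of the members measured there, 16 of 34 were at least 1.2-fold higher and 3 at least 1.2-fold lower, against 10.4% and 12.1% of all genes. In pair B the counts were 3 and 0 of 35, against 5.26% and 3.41%, and in pair C they were 4 and 4 of 35, against 9.25% and 9.24%. Cldn11 was the only member higher by that much in all 3 pairs. Both dye orientations had the same sign in 23 of 34 members in pair A, 17 of 35 in pair B and 24 of 35 in pair C, beside 52.0%, 54.4% and 62.6% of all genes.

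Marker lists of other tissues also had their own values in pair A. The surface ectoderm list, with 11 of 12 tested and Grhl3 not, had medians of 0.31, 0.08 and 0.09. In pair A its values ran from -0.32 for Krt14 to 1.15 for Krt8, with Krt18 at 1.04, Epcam at 0.92 and Krt5 at 0.19. Its summed level lay between 14.33 and 14.99 in the WT pools and between 14.95 and 15.24 in the Paraxis-/- pools. The endoderm list, with 8 of 10 tested and Ttr and Apob not, had medians of 0.48, 0.08 and 0.05. Its summed level lay between 12.30 and 13.14 in WT and between 13.19 and 13.48 in Paraxis-/-. Of the defining markers, Afp had ratios of 4.34, 1.58 and -0.20, Trf had -0.02 in pair A, and Apoa1 was not well above background in WT. Rbp4 had ratios of 1.42, 0.65 and 0.56, and Sox17, highest in pair C, had 0.18, 0.33 and 0.37. All 8 tested had a mean above 0, beside 51.6% of all genes, and 5 were above 0 in all 3 pairs, against 13.5%. Both counts include Apoa1, whose sign is not independent of the brightness filter, since it passed only through the Paraxis-/- pools. Other lists ran differently, with medians of -0.55, 0.23 and 0.17 for neural crest and -0.29, 0.16 and 0.21 for neural tube. Primitive blood had medians of 0.50, 0.97 and -0.09, highest in pair B.

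The members that were at least 1.2-fold higher in pair A, apart from Cldn11, were Cldn3, Cldn4, Cldn6, Cldn7, Cldn8, Cldn9, Cldn12, Ocln, Tjp1, F11r, Prkcz, Crb2, Crb3, Dlg1 and Llgl2. In that pair the surface ectoderm and endoderm lists had their highest medians and the neural crest and neural tube lists their lowest. The somite and presomitic mesoderm list also had its highest median in pair A, with 0.02, -0.46 and -0.29 in pairs A, B and C. In that list Tbx6 had ratios of 2.43, -0.59 and 0.22, and Dll1 of 0.66, -0.40 and 0.06. Meox2, Tbx18, Pax3 and Pax1 of the same list were instead lowest in pair A. Pair A also differs from the others in its slide. The part of these tissues, or of the slide, in the members' ratios was not tested. Cldn11 had ratios of 1.03 and 0.95 in pairs B and C. The list medians in those 2 pairs were 0.08 and 0.09 for surface ectoderm and 0.08 and 0.05 for endoderm. They were 0.23 and 0.17 for neural crest, 0.16 and 0.21 for neural tube and 0.97 and -0.09 for primitive blood. The part of any of these tissues in the Cldn11 ratios was not tested either.

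Other genes of the same pathways were described from lists that hold none of the members. Of 27 further tight junction genes, 22 were tested, with a median of 0.02. Of these, 1 was higher and 2 were lower at an unadjusted p under 0.05, against 2.34% and 2.73% of all genes. Of 25 further polarity genes, 22 were tested, with a median of -0.02, and 0 were higher and 1 was lower. None passed the adjusted threshold.

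Amotl1, an angiomotin-like protein of tight junctions, had ratios of -0.37, -0.50 and -0.51, with a mean of -0.46 (SE 0.07, unadjusted p = 0.0014, adjusted p = 0.474 by limma). Ybx3, a Y-box protein that binds ZO-1, had ratios of -0.46, -0.60 and -0.05. Lin7a, a partner of PALS1, had ratios of -0.66, -0.15 and -0.22, and Sympk, which encodes symplekin, of -0.29, -0.03 and -0.27. On the other side Cgnl1 (paracingulin) had ratios of 0.22, 0.22 and 0.17, with a mean of 0.20 (SE 0.07). Mark1, a PAR-1 kinase, had a mean of 0.16. Ildr1 and Marveld2, both components of junctions where 3 cells meet, had means of 0.17 and 0.22, and Ildr1 passed the brightness filter only through the Paraxis-/- pools.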

How the data were processed

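RNA of 3 WT and 3 Paraxis-/- pools was hybridised to 6 two-colour Agilent arrays, with spot intensity deposited by the authors as scanner output of Agilent Feature Extraction (10.7.3.1 for slide 1 and 10.5.1.1 for slide 2 per the file headers; 8.5.1.1 per the submitters' processing notes). The deposited series matrix holds log10 ratios of Cy5 over Cy3 and served as an alternative. Titles paired the pools, since the descriptions of 2 arrays name other pools. The plan named mean signals, but slide 2 holds medians, so median intensities were used for all arrays, with normexp (offset 50) and loess in limma 3.58.1 (R 4.3.3, with files read by version 1.17.8 of data.table). Control and outlier spots had no weight in loess, and outlier spots were left out. Each pair's ratio, Paraxis-/- over WT, is the mean of its dye orientations. Probes needed a signal well above background in 4 or more of a genotype's 6 measurements, and each gene took its brightest kept probe with at least 2 pairs. A two-sided limma test (lmFit, then eBayes) asked whether the mean of a gene's pairs differs from 0, and p-values were adjusted over 19325 genes by Benjamini-Hochberg. Simulated data held 50 changed genes at each size, and the fit recovered 12% where the change was 1.5-fold. Recovery was 84% at 2-fold and 96% at 4-fold, and 8 of the 152 calls were false. A member that changed by 1.5-fold or less could thus easily be missed. Levels are log2 intensities, Aquantile-normalized after loess, and a list's summed level is the log2 of the summed linear intensities. The number of arrays limits the precision, and where pools share handling the p-values measure only the spread between these pools.

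Names were updated through RefSeq, and probe coordinates are those of the files' build, mm9. Promoters are from RefSeq's GRCm38.p6 listing. Figures were drawn with matplotlib 3.10.9. Described in full were members past 1.5-fold and the 10 with the smallest p, Cldn11 being in both; up to 4 further pathway genes per direction were taken by p with 1 sign in all pairs. Members and lists were chosen with earlier results of these data known.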

Additional observations from a re-analysis of the deposited data

How the results depend on the processing

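The number of arrays limits the precision, and the brightness filter left 4 members without a test. Over 18 alternatives, 15 of the 35 tested members kept 1 sign throughout, among them all 10 with the smallest p. Since the alternatives reuse the same arrays that gave those p-values, this is no separate support for the 10. The count of members past the threshold was 0 as reported and 0 whichever pair was left out. It was 1, Cldn11, under 4 alternatives by limma: ratios scaled between arrays (1.07, adjusted p = 0.0358), slide as a block (1.11, adjusted p = 0.0211), the 6 arrays with no replicate block (1.07, adjusted p = 0.00156) and the 6 arrays with pair as a replicate block (1.07, adjusted p = 0.00377). Over all genes, the count of 4 became 7 with Agilent's processed signals, 18 with ratios scaled between arrays, 76 with slide as a block, 95 with no replicate block, 75 with the replicate block and 0 to 2 without 1 pair. A fit of 6 arrays takes the dye orientations of a pair as separate values. Without pair B, Tcf15 had a ratio of -5.37 and an adjusted p of 0.0872 (limma). The polarity median became 0.0902 with the mean of a gene's probes, 0.0683 with slide as a block and 0.0498 to 0.205 without 1 pair. Without 1 pair, the junction median was -0.0418 to 0.0798 and the claudin median -0.0279 to 0.1. All other settings kept these medians within the spread between pairs.

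The 20 members whose sign turned under some setting had means near 0 or pairs of opposite sign. Centring on the median without loess gave -0.0141 for Cldn10, -0.0214 for Cldn23, 0.012 for Jam3, 0.0798 for Scrib, 0.0677 for Tjp1 and 0.0161 for Tjp3. Ratios scaled between arrays gave -0.00658 for Cldn10 and -0.00112 for Cldn23. Values without background correction were -0.0161 for Cldn23. Agilent's processed signals gave 0.0292 for Scrib and 0.0174 for Tjp1, and the series matrix 0.0204 for Scrib and 0.00866 for Tjp1. With slide as a block Tjp1 had 0.093. Tjp3 became 0.0718 with outlier spots kept, 0.152 with no replicate block, 0.181 with the replicate block and 0.283 with pairs of 1 usable array kept, a setting chosen after seeing the data. Leaving out 1 pair in turn gave -0.0188 to 0.0893 for Cldn1, -0.0503 to 0.0488 for Cldn10, -0.299 to 0.139 for Cldn12, -0.00979 to 0.0447 for Cldn14, -0.125 to 0.0112 for Cldn15, -0.0279 to 0.0398 for Cldn23, -0.0828 to 0.252 for Cldn3, -0.504 to 0.232 for Cldn7, -0.118 to 0.177 for Cldn8. It gave -0.0875 to 0.161 for Cldn9, -0.093 to 0.32 for Crb3, -0.296 to 0.221 for Jam2, -0.171 to 0.3003 for Llgl1, -0.002 to 0.43 for Llgl2, -0.0215 to 0.131 for Mpp5, -0.0558 to 0.0722 for Prkci, -0.0703 to 0.0111 for Scrib and -0.215 to 0.163 for Tjp1. The cause of these changes was not tested.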
